A study of Mus musculus with 12 samples.

Results

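The 10 genes described here encode costimulatory and checkpoint molecules (Cd80, Cd86, Cd40, Cd274 and Pdcd1) and parts of the MHC class II pathway (Ciita, Cd74, H2-Aa, H2-Ab1 and H2-DMa). They were taken by gene symbol from the 24062 entries of the deposited tables, and all 10 were found. RNA came from BV2 cells, an immortalised mouse microglial line, which were sorted by flow cytometry. Spi1 encodes the ETS transcription factor PU.1, and its expression had been altered transiently, either downward by a short hairpin RNA or upward from a mouse Spi1 cDNA. There were 4 groups of 3 libraries: Spi1 knockdown and its scrambled hairpin control, and Spi1 overexpression and its empty frame control, called the empty control here. The labels name no stimulus and no sorting marker, and they do not tell whether the 3 libraries of a group were grown apart, so the p-values reflect the spread among these libraries alone, which may be technical.

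T cells read antigen on MHC class II together with costimulatory signals. CD80 and CD86 on the presenting cell engage CD28 to activate T cells and CTLA-4 to restrain them, and CD40 receives CD40 ligand from helper T cells. PD-L1, encoded by Cd274, engages the inhibitory receptor PD-1, encoded by Pdcd1, which is best known on T cells and is also found on macrophages. CIITA is the coactivator that switches on class II genes. The class II alpha and beta chains of the A molecule come from H2-Aa and H2-Ab1, CD74 is the invariant chain that guides them through the cell, and H2-DM edits the peptides they carry. Resting microglia are known for low class II expression that interferon gamma raises.

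Library totals recovered from the values were 22.3 to 33.1 megareads. The macrophage identity of the cells was checked with 11 markers, of which 9 averaged at least 1 FPKM (reads per kilobase of gene length and per megaread of the library). Their summed level was 1341 to 1485 FPKM in knockdown against 1624 to 1691 FPKM in scrambled controls, and 1445 to 1651 FPKM in overexpression against 1486 to 1703 FPKM in empty controls. The homeostatic microglial markers Cx3cr1 and P2ry12 stayed below 1 FPKM in every library, while Tmem119, also a homeostatic marker, stood at 2.12 to 4.67 FPKM. The part of the lower macrophage sum in the knockdown results was not tested. Fewer cells of a type and less RNA per cell cannot be told apart in such bulk samples. Libraries with the same number resembled each other, and both libraries numbered 2 of the overexpression experiment stood apart from numbers 1 and 3, as the members themselves show further on. Spi1 stood at 50.9, 42.4 and 52.3 FPKM in knockdown against 159, 169 and 168 FPKM in scrambled controls, and at 287, 224 and 206 FPKM in overexpression against 158, 117 and 131 FPKM in empty controls. The mean ratio was 0.293 in knockdown and 1.76 in overexpression.

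With Spi1 lowered, the costimulatory genes Cd86, Cd80 and Cd40 and the checkpoint ligand gene Cd274 fell, and the checkpoint receptor gene Pdcd1 rose. The largest fall was that of Cd86, to 0.505 of the scrambled control mean, and Pdcd1 stood at 3.29 times that mean. These were 5 of the 7 members whose mean over the 6 libraries reached the 1 FPKM needed for the test, 4 lower and 1 higher. Across all 11214 genes tested, 26.3% were called in either direction, 8.86% lower and 17.4% higher (limma on log2(FPKM + 1), Benjamini-Hochberg, BH, adjusted p under 0.05). At an unadjusted p under 0.05 there were 6 of 7 members, against 40.4% of genes. With the replicate block 6 members were called, 5 lower and 1 higher, where 45.3% of genes were. In 5 members every knockdown library was below every scrambled control, as in 15.1% of genes, and in 1 every one was above, as in 30.3%. The same 5 were lower in 3 of 3 same-numbered pairs and the same 1 higher, as were 24.6% and 47.3% of genes. The median log2 fold change of the 7 members was -0.59, against 0.07 over all genes tested. With median-of-ratios scaling the split over all genes was 1295 higher and 1413 lower (11.5% and 12.6%, or 24.1% in all), in place of 1952 and 993, and 6 members were called, 5 lower and 1 higher. With both libraries numbered 2 left out, which was decided after the data had been seen, 3 members were called, Cd86, Cd80 and Pdcd1, where 4% of genes were, 2.2% higher and 1.8% lower. Without both numbered 3 they were Cd86, Cd40 and Pdcd1, where 6.05% of genes were called, 3.95% higher and 2.1% lower.

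Cd86 lies on chromosome 16 of mm10, bases 36603869 to 36666081 on the minus strand, in 10 exon blocks. Its level was 21.7, 20.3 and 19.4 FPKM in the 3 knockdown libraries, against 43.5, 40.9 and 37.4 FPKM in the 3 scrambled controls. All 3 knockdown libraries lay far below the lowest control. The means were 20.5 ± 1.15 FPKM in knockdown and 40.6 ± 3.05 FPKM in scrambled controls (SD, n = 3 each), and the log2 fold change was -0.95 (standard error 0.08; limma, BH adjusted p = 0.00138). The 3 pairs of same-numbered libraries gave ratios of 0.499, 0.498 and 0.519. The call held in every alternative fit of this comparison, with adjusted p between 0.000119 and 0.0368.

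Cd80, the second ligand gene of CD28, lies on the same chromosome at bases 38455561 to 38496335 of the plus strand. It was expressed at a lower level per length than Cd86. It stood at 4.07, 5.34 and 4.61 FPKM in knockdown, against 7.56, 9.84 and 8.42 FPKM in scrambled controls. The groups did not overlap, and the ratios within the 3 pairs were 0.539, 0.542 and 0.548, closer together than for any other called member. On the log2 scale the change was -0.76 (standard error 0.11; limma, BH adjusted p = 0.00528). The call was lost in the fit of all 12 libraries with 1 shared spread (adjusted p = 0.151) and without both libraries numbered 3 (adjusted p = 0.0641). Cd86 exceeded Cd80 by 5.33, 3.81 and 4.22 times in knockdown and by 5.76, 4.15 and 4.45 times in scrambled controls. The ratio of these ligand genes thus overlapped between the groups, while it was lower in knockdown within each of the 3 same-numbered pairs. It was not tested.

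Cd40, the receptor gene for CD40 ligand, lies on chromosome 2 at bases 165055627 to 165072948 of the plus strand, the chromosome that also holds Spi1. Its level was 18.7, 16.6 and 18.4 FPKM in knockdown, against 29.8, 27.6 and 25.0 FPKM in scrambled controls. Every knockdown library was below every control. The means were 17.9 ± 1.15 FPKM in knockdown and 27.5 ± 2.44 FPKM in scrambled controls (SD, n = 3 each), and the log2 fold change was -0.59 (standard error 0.08; limma, BH adjusted p = 0.00474). The call was lost without both libraries numbered 2 (adjusted p = 0.0549).

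Cd274, the gene of PD-L1, lies on chromosome 19 at bases 29367455 to 29388095 of the plus strand. Of its 3622 exon bases in GENCODE M21, 511 are shared with another annotated gene. The annotation used for counting is not given, so how reads there were counted is not known. It stood at 35.7, 25.8 and 28.5 FPKM in knockdown, against 54.5, 45.5 and 37.7 FPKM in scrambled controls. The groups did not overlap, but the highest knockdown library was close to the lowest control. On the log2 scale the change was -0.59 (standard error 0.16; limma, BH adjusted p = 0.0315). This is the least stable of the calls: the adjusted p was 0.0769 without scrambled control 1, 0.0679 without scrambled control 2, 0.0925 without knockdown 2, 0.0961 without knockdown 3, 0.172 without both libraries numbered 2 and 0.0863 without both numbered 3. It was 0.0811 with no filter on low values and 0.170 in the fit of all 12 libraries.

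Pdcd1 lies on chromosome 1 at bases 94038305 to 94052553 of the minus strand, in 5 exon blocks that share no base with another annotated gene. It stood at 4.97, 5.52 and 4.51 FPKM in knockdown, against 0.965, 1.64 and 1.95 FPKM in scrambled controls, from 255, 284 and 288 reads in knockdown and 48, 78 and 92 reads in scrambled controls. Every knockdown library lay far above every scrambled control, and the ratios within pairs were 5.15, 3.35 and 2.31. The means were 5.00 ± 0.503 FPKM in knockdown and 1.52 ± 0.506 FPKM in scrambled controls (SD, n = 3 each), and the change was 1.27 on the log2(FPKM + 1) scale, which understates that of a gene at this level (standard error 0.15; limma, BH adjusted p = 0.00307). In limma-voom on recovered reads the log2 fold change was 1.77. The ratio of Cd274 to Pdcd1 was 7.18, 4.68 and 6.31 in knockdown against 56.4, 27.6 and 19.3 in scrambled controls. Its lack of overlap follows from the lower Cd274 and higher Pdcd1 values already given. As Pdcd1 is known from T cells, 8 T cell markers were summed: they came to 4.68 to 4.92 FPKM in knockdown and 5.94 to 6.203 FPKM in scrambled controls. Cd3e and Cd3g were at 0 in all 12 libraries, Cd3d, Cd4, Cd8a and Cd2 stayed at or below 0.311 FPKM, and nearly all of the sum came from Cd247 and Lck.

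**Figure D1:**
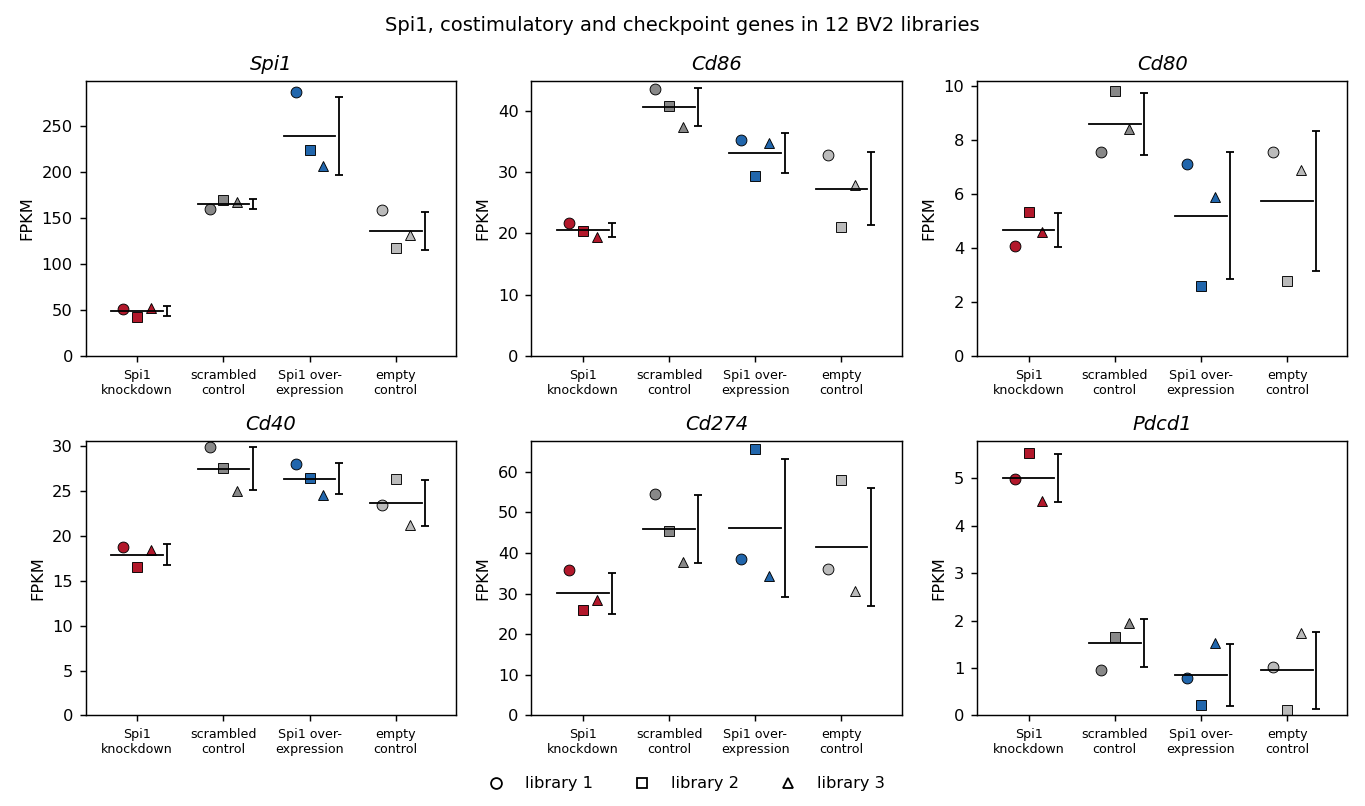
FPKM of Spi1 and of the costimulatory and checkpoint genes in each of the 12 libraries, with symbols for library numbers 1 to 3, a line at each group mean and a bar of 1 SD to its right (n = 3). Cd86, Cd80, Cd40 and Cd274 lay lower and Pdcd1 higher in every knockdown library than in any scrambled control, while overexpression and empty controls overlapped in these 5 genes, and the libraries numbered 2 of the overexpression experiment stood low for Cd80 and Pdcd1 and high for Cd274.

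The promoter windows of Pdcd1, which rose, and of Cd80, which fell, are shown with 3 short motifs searched on both strands, since PU.1 binds purine-rich sites with a GGAA centre. The motifs were GAGGAA for PU.1, GATTGG, the core of the Y box of class II promoters, and TGACGTCA, the full cyclic AMP response element that the X2 box of class II promoters resembles. No motif searched overlaps another in the windows printed. Among 32851 promoter windows of the same 250 bases before a gene start, 23.3% held GAGGAA, 14.6% GATTGG and 1.55% TGACGTCA. Sequences are from RefSeq on GRCm38.p6 (mm10), 5′ to 3′ on the strand of the gene, ending at the base before its start, with matches in capitals. The Pdcd1 window is chr1:94052554-94052803 on the minus strand, and that of Cd80 is chr16:38458683-38458932 on the plus strand, at a RefSeq start that lies inside the GENCODE gene. Of the 10 members, the windows of Pdcd1, Cd80, Cd274, H2-Aa and H2-DMa were searched. The RefSeq set used had no entry for Cd86, Cd40, Ciita and H2-Ab1, and Cd74 was left out of the search.
Pdcd1: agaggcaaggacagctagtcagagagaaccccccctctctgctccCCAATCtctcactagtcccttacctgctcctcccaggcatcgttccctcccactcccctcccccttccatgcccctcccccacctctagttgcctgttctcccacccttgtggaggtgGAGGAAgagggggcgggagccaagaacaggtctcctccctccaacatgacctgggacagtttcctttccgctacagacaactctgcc
Cd80: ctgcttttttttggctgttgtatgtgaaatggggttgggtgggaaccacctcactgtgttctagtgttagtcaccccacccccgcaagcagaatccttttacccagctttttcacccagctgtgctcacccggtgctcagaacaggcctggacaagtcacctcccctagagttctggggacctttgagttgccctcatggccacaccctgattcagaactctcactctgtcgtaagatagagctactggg
Pdcd1 held GAGGAA on its own strand, beginning 87 bases before the start, and GATTGG on the opposite strand, beginning 205 bases before it. Cd80 held none of the 3 motifs in these letters, nor did Cd274, and H2-DMa held GATTGG in 1 of its windows.

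With Spi1 raised, 0 of the 6 tested members were called, and 0 of 11217 genes in all, or 0% (limma, BH). At an unadjusted p under 0.05 in this unpaired fit there were 0 members and 122 genes, 1.09% of those tested, and limma-voom called 0 genes. When library number entered as a replicate block, 13 genes, 0.116%, were called, 0.0802% higher and 0.0357% lower, among them Spi1 (adjusted p = 0.0357) and 0 members. Unadjusted limma p-values of the 6 tested members in that block fit ran from 0.00724 for Cd74 to 0.0467 for Cd40. By p these members ranked from 388 to 1510 among the 11217 genes, and their BH adjusted p lay between 0.209 and 0.347. Groups overlapped for all 6 tested members, while 1.66% of tested genes were higher and 2.4% lower without overlap. The members below the limit for the test also overlapped, which values at or near 0, such as those of Ciita, H2-Aa and H2-Ab1, do by themselves.

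Cd86 stood at 35.3, 29.4 and 34.7 FPKM in overexpression, against 32.9, 21.0 and 27.9 FPKM in empty controls. It was higher in 3 of 3 same-numbered pairs, with ratios of 1.07, 1.40 and 1.24. The log2 fold change was 0.29 with a 95% interval of -0.12 to 0.70 (limma, BH adjusted p = 0.9999). With the replicate block the same fold change had an interval of 0.10 to 0.48 and an adjusted p of 0.239. Leaving out 1 library at a time gave a fold change between 0.12, without empty control 2, and 0.43, without empty control 1.

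Cd40 and Cd274 were likewise higher in 3 of 3 pairs, as were 14% of all genes tested. Cd40 stood at 28.0, 26.4 and 24.6 FPKM in overexpression, against 23.4, 26.3 and 21.2 FPKM in empty controls, with a log2 fold change of 0.15 and an interval of -0.10 to 0.41. In the block fit that interval was 0.003 to 0.30 (limma, BH adjusted p = 0.347). The pair numbered 2 differed little for Cd40, with a ratio of 1.01, and leaving out 1 library at a time gave between 0.081, without empty control 3, and 0.23, without empty control 2. Cd274 stood at 38.4, 65.6 and 34.2 FPKM in overexpression, against 36.0, 58.0 and 30.6 FPKM in empty controls. Libraries numbered 2 were the highest of their groups for Cd274, and the log2 fold change was 0.14 with an interval of -0.62 to 0.90. Without both of them the fold change was 0.13 and the interval -0.18 to 0.43. For Cd274 the block fit gave an interval of 0.04 to 0.24 (limma, BH adjusted p = 0.271).

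Cd80 stood at 7.12, 2.59 and 5.91 FPKM in overexpression, against 7.59, 2.78 and 6.92 FPKM in empty controls. It was lower in 3 of 3 pairs, as were 23.8% of all genes tested, and the log2 fold change was -0.12 with an interval of -1.11 to 0.88. Its interval in the block fit was -0.23 to -0.003 (limma, BH adjusted p = 0.346). The libraries numbered 2 were at 0.398 of the mean of the other libraries in overexpression and at 0.383 of it in empty controls, a gap wider than any within a pair. Leaving them out gave a fold change of -0.14 and an interval of -0.44 to 0.16. Pdcd1 stood at 0.800, 0.225 and 1.53 FPKM in overexpression, against 1.02, 0.108 and 1.73 FPKM in empty controls, from 12 and 5 reads in the libraries numbered 2. Its mean was below the limit for the test, and it was lower in 2 of 3 pairs. Cd86, Cd80, Pdcd1 and H2-DMa were lowest, and Cd274 highest, in the libraries numbered 2 of both groups of this experiment, while in the knockdown experiment Cd80 and H2-DMa were highest there. For Cd86 the libraries numbered 2 were at 0.838 of the mean of the other libraries in overexpression and at 0.691 of it in empty controls.

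**Figure D2:**
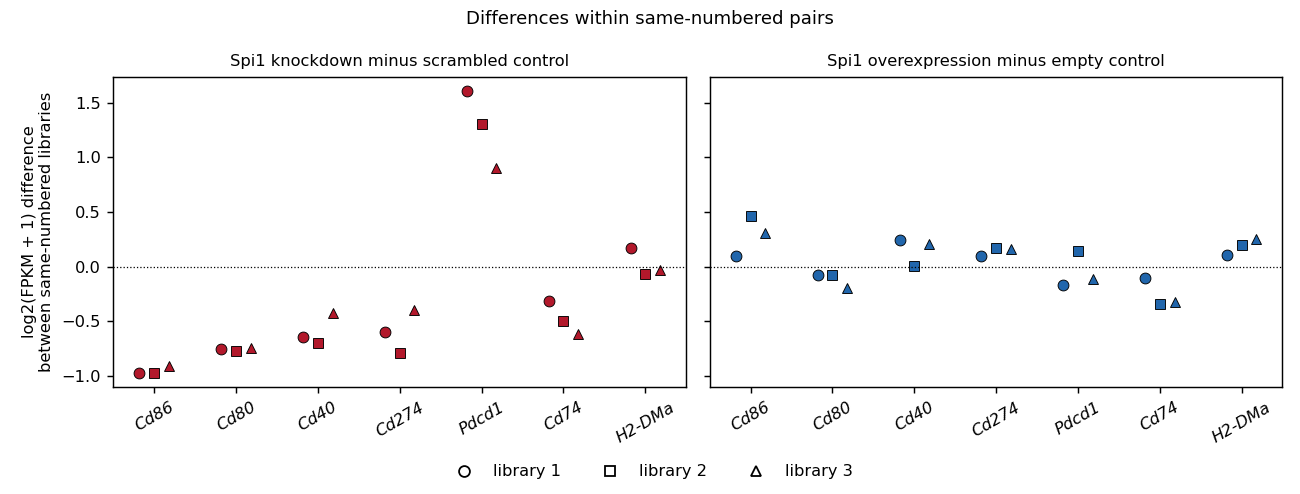
Difference in log2(FPKM + 1) between same-numbered libraries for the 7 members that reached 1 FPKM on average over the 12 libraries, knockdown minus scrambled control on the left and overexpression minus empty control on the right. Cd86, Cd80, Cd40, Cd274 and Cd74 lay below 0 and Pdcd1 above 0 in all 3 knockdown pairs, and the overexpression pairs of Cd86, Cd80, Cd40, Cd274 and Pdcd1 lay closer to 0 than any of their knockdown pairs.

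All 12 libraries entered the test of whether the overexpression effect differed from the knockdown effect, given as the first minus the second. It was called for Cd86, at 1.24 with a standard error of 0.20 (limma, BH adjusted p = 0.00930), and for Cd40, at 0.74 with a standard error of 0.14 (limma, BH adjusted p = 0.0197), 2 of 7 members tested against 4.84% of 11224 genes, 1.9% with a positive and 2.94% with a negative difference. At an unadjusted p under 0.05 there were 3 members and 21.4% of genes. For Cd86 the treated library was lower in 3 of 3 knockdown pairs and higher in 3 of 3 overexpression pairs, and the same held for Cd40. The Cd40 overexpression pair numbered 2 had a ratio of 1.01. Over all genes tested, 24.6% were lower in all 3 knockdown pairs and 14% were higher in all 3 overexpression pairs. Pdcd1 had a difference of -1.31 (adjusted p = 0.129), Cd274 of 0.74 (adjusted p = 0.308) and Cd80 of 0.64 (adjusted p = 0.477). With the replicate block these adjusted p-values were 0.00211, 0.00218 and 0.000661, and 5 members were called, where 41.5% of all genes were, 12.9% with a positive and 28.6% with a negative difference. For Cd40 the difference did not pass in fits that left out knockdown 3 (adjusted p = 0.0511), scrambled control 2 (0.0565), empty control 3 (0.0553) or both libraries numbered 2 (0.0994), 1 (0.192) or 3 (0.144). That for Cd86 was lost without both libraries numbered 1 (0.0875) or 3 (0.203). Pdcd1 passed without empty control 2 (adjusted p = 0.0360).

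**Figure D3:**
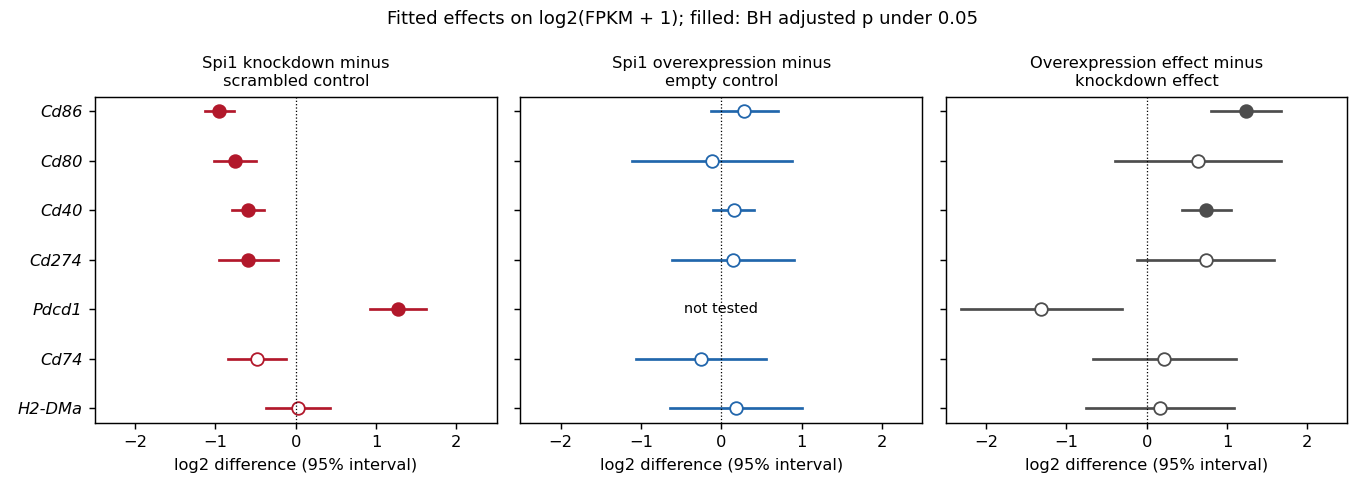
Fitted log2 differences with 95% intervals for 7 members in the 3 comparisons, on log2(FPKM + 1); filled symbols passed a BH adjusted p of 0.05 in limma. Cd86, Cd80, Cd40, Cd274 and Pdcd1 are filled for knockdown, none for overexpression, and Cd86 at 1.24 and Cd40 at 0.74 for the difference.

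Read as levels over all 4 groups, the members did not follow 1 order. The controls belong to separate experiments, so a shift between experiments cannot be told apart from an effect of the vectors, and no test was made across them. Cd86 averaged 20.5 FPKM in knockdown, 33.1 in overexpression, 27.3 in empty controls and 40.6 in scrambled controls, and in the order of the means the scrambled controls were clear of overexpression, while overexpression overlapped empty controls and empty controls overlapped knockdown. Cd40 averaged 17.9 FPKM in knockdown, below every library of the other groups, which were at 26.3 in overexpression, 23.6 in empty controls and 27.5 in scrambled controls and overlapped. Cd80 averaged 4.67 FPKM in knockdown, 5.21 in overexpression, 5.76 in empty controls and 8.60 in scrambled controls, and neighbouring groups overlapped throughout. For Cd274 the means were 30.01 FPKM in knockdown, 46.1 in overexpression, 41.5 in empty controls and 45.9 in scrambled controls, again with overlap between neighbours. Pdcd1 averaged 5.00 FPKM in knockdown, above every other library, with 0.852 in overexpression, 0.954 in empty controls and 1.52 in scrambled controls overlapping.

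Of the class II members, H2-Ab1, H2-Aa and Ciita were near 0 in BV2, while Cd74 was abundant and H2-DMa was low. H2-Ab1 lies on chromosome 17 at bases 34257689 to 34269419 and was at 0 in all 12 libraries, 321.6 megareads in sum. A count of 0 allows up to 3 reads, or 0.0907 to 0.134 reads per megaread depending on the library, and this covers counting error only. H2-Aa, at bases 34282744 to 34287823 of the same chromosome, was above 0 in 5 libraries and never over 0.101 FPKM. Ciita, on chromosome 16 at bases 10480059 to 10528418, was above 0 in 7 libraries and never over 0.0529 FPKM. With the smallest step of these genes taken as 1 read, H2-Aa had 9 reads and Ciita 18 reads over all libraries. At this depth no difference between groups was detectable for these 3 genes, and no fold change is given.

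The window before H2-Aa, chr17:34287824-34288073 on the minus strand, is printed as that of a class II gene that is near 0 here and whose window holds letters of the class II boxes. Capitals mark TGACGTCA, beginning 74 bases before the start, and GATTGG, beginning 49 bases before it.
H2-Aa: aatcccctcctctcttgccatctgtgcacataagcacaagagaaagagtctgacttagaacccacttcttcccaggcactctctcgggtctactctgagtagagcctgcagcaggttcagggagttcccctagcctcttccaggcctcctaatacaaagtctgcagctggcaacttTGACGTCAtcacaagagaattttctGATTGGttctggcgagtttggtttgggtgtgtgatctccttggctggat

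Cd74, on chromosome 18 at bases 60803848 to 60812652, was the most abundant of these genes, with 680 of 24058 genes above its mean over the 12 libraries. It stood at 115, 84.2 and 109 FPKM in knockdown, against 144, 119 and 168 FPKM in scrambled controls. The groups did not overlap, as for 15.1% of tested genes in this direction. The log2 fold change was -0.48 with a 95% interval of -0.84 to -0.12, and it missed the threshold (limma, BH adjusted p = 0.0576). With the replicate block the adjusted p was 0.00740, with median-of-ratios scaling 0.0397, in limma-voom 0.0268, with a filter at a mean of 5 FPKM 0.0423 and without scrambled control 2 0.0363. In the other experiment Cd74 stood at 59.1, 63.3 and 108 FPKM in overexpression, against 63.6, 80.5 and 136 FPKM in empty controls. It was lower in 3 of 3 pairs there too, with ratios of 0.929, 0.786 and 0.797, and the log2 fold change was -0.26 with an interval of -1.07 to 0.55. The replicate block gave an interval of -0.41 to -0.10 in that experiment (limma, BH adjusted p = 0.209). Libraries numbered 3 were the highest of their group in overexpression, empty controls and scrambled controls. By group means Cd74 stood at 103 FPKM in knockdown, 76.8 in overexpression, 93.2 in empty controls and 144 in scrambled controls, so the group with the most Spi1 had the lowest mean and only the scrambled controls were clear of the next group.

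H2-DMa, on chromosome 17 at bases 34119541 to 34139101, shares 360 of its 3448 exon bases in GENCODE M21 with another gene, Brd2. The gene length recovered from its values was 1658 bases, so whether the shared bases were counted is not known. It stood at 1.36, 2.10 and 1.75 FPKM in knockdown, against 1.10, 2.26 and 1.805 FPKM in scrambled controls. The groups overlapped, and the log2 fold change was 0.02 with an interval of -0.37 to 0.42 (limma, BH adjusted p = 0.927). In overexpression H2-DMa stood at 2.73, 0.872 and 1.74 FPKM, against 2.46, 0.631 and 1.30 FPKM in empty controls. It was higher in 3 of 3 pairs, with a log2 fold change of 0.19 and an interval of -0.63 to 1.01. Under the replicate block the interval was 0.07 to 0.30 (limma, BH adjusted p = 0.220). In that experiment the gap between library numbers 1 and 2 was larger than that within any pair.

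**Figure D4:**
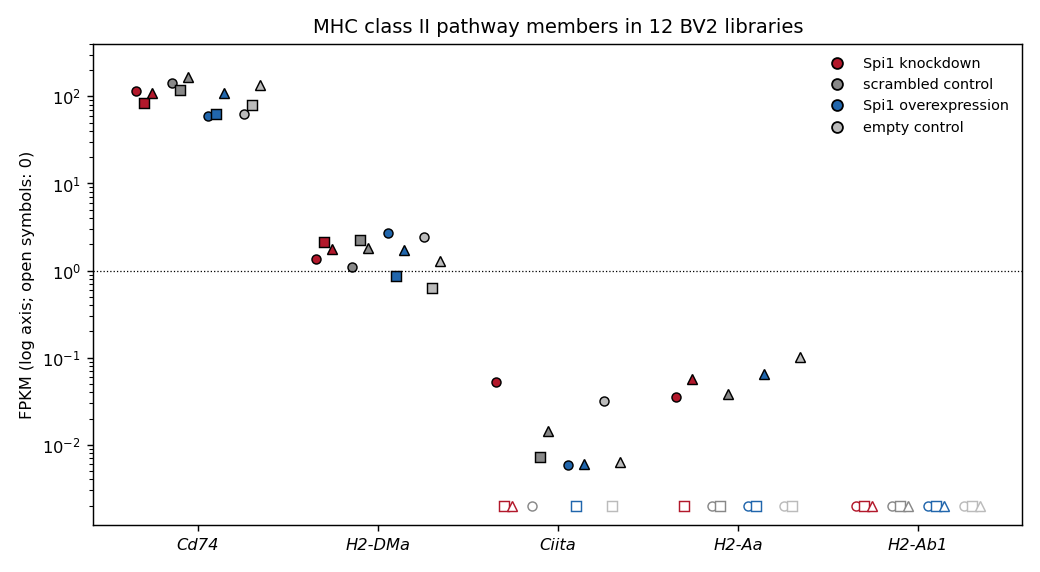
FPKM of the 5 class II pathway members in each of the 12 libraries on a log axis, with groups from left to right within a gene as in the legend, circles, squares and triangles for libraries 1, 2 and 3, and open symbols at the bottom for 0. Cd74 lay between 59.1 and 168 FPKM, H2-DMa between 0.631 and 2.73 FPKM, and Ciita, H2-Aa and H2-Ab1 far below the dotted line at 1 FPKM.

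A list of 77 symbols was used for the rest of the pathway, and 70 of them were found in the tables. In knockdown 49 reached the test, of which 6 fell and 3 rose, against 8.86% and 17.4% of all genes, and the median log2 fold change was -0.02, beside 0.07 over all genes tested. With the replicate block 15 fell and 11 rose, where 14.7% of all genes fell and 30.6% rose. Without both libraries numbered 2 there were 2 calls, 1 in each direction, where 4% of all genes were called. In overexpression 48 were tested and 0 called by limma with BH adjustment, 1 of them had an unadjusted p under 0.05, and limma-voom called 0.

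Most other class II genes were near 0 as well. Of the 7 further structural and peptide editing genes found, H2-Eb1, H2-Eb2, H2-Ea-ps, H2-DMb2 and H2-Ob averaged under 1 FPKM in all 4 groups. Among these H2-DMb2 was above 0 in 12 of 12 libraries, with 107 recovered reads in all and up to 0.640 FPKM. H2-Ob had 20 reads, H2-Eb1 7, H2-Eb2 1 and H2-Ea-ps 0. H2-DMb1, whose product pairs with that of H2-DMa, averaged 8.72 ± 1.499 FPKM in knockdown and 8.56 ± 1.84 FPKM in scrambled controls (SD, n = 3 each), with a fitted log2 change of 0.03. H2-Oa, which encodes a chain of the inhibitor of H2-DM, averaged 3.73 ± 1.10 FPKM in knockdown and 2.98 ± 0.969 FPKM in scrambled controls, a log2 fold change of 0.25 that passed only with the replicate block (limma, BH adjusted p = 0.0237, against 0.398 without it). In overexpression H2-Oa had a log2 fold change of -0.26 and H2-DMb1 of 0.02, and neither passed.

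Among the 14 tested genes of class II transcription and the interferon gamma relay, 1 fell in knockdown, where 8.86% of all genes tested fell. It was Ifngr2, a chain of the interferon gamma receptor, at 67.6 ± 3.81 FPKM in knockdown and 89.1 ± 2.28 FPKM in scrambled controls (SD, n = 3 each; log2 fold change -0.40, limma, BH adjusted p = 0.00714). The genes of the RFX and NF-Y factors that bind class II promoters were present and gave no call, and Rfx5 had a log2 fold change of 0.26 (adjusted p = 0.134, or 0.00880 with the replicate block). In overexpression Rfx5 and Ifngr1 had log2 fold changes of -0.17 and -0.14, which did not pass. Of 6 tested genes of antigen processing 2 fell in knockdown, against the same 8.86% of all genes. They were the lysosomal protease genes Ctsd and Ctss, at -0.53 (limma, BH adjusted p = 0.0140) and -0.47 (0.00842). Ctss, whose product trims the invariant chain CD74, averaged 512 ± 49.3 FPKM in knockdown and 708 ± 24.0 FPKM in scrambled controls. The call for Ctsd was lost without knockdown 3 (adjusted p = 0.0514), and both were lost without the libraries numbered 2 (0.0948 for Ctsd and 0.0765 for Ctss) or 3 (0.0850 and 0.0738). That for Ifngr2 was lost in the same fits (0.0687 and 0.0575). In overexpression Ctsd and Ifi30, a lysosomal thiol reductase gene, stood at 0.12 and 0.11 without passing.

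Of 11 tested ligands seen by T cells, 2 rose and 1 fell in knockdown, where 17.4% of all genes tested rose and 8.86% fell. Tnfsf9, the gene of 4-1BB ligand, fell by 0.57 on the log2 scale to 19.9 ± 1.99 FPKM in knockdown, against 30.1 ± 1.03 FPKM in scrambled controls (SD, n = 3 each; limma, BH adjusted p = 0.00462). Tnfrsf9, the gene of its receptor 4-1BB, rose by 0.66, to 17.6 ± 2.23 FPKM in knockdown, against 10.8 ± 1.31 FPKM in scrambled controls (limma, BH adjusted p = 0.00836). Cd276, the gene of the B7 family member B7-H3, rose by 0.47 to 17.6 ± 1.03 FPKM in knockdown, against 12.4 ± 0.495 FPKM in scrambled controls (limma, BH adjusted p = 0.00474). The calls for Tnfsf9 and Tnfrsf9 were lost without both libraries numbered 2 (adjusted p = 0.0543 and 0.0574) and in the fit of all 12 libraries (0.0682 and 0.0506), that for Tnfsf9 also without both numbered 3 (0.0582), and that for Cd276 without both numbered 3 (0.0549). Pvr, a ligand gene of TIGIT, rose by 0.25 (adjusted p = 0.0416), a call lost without scrambled control 1, 2 or 3 or knockdown 1, 2 or 3, at adjusted p between 0.0590 and 0.123. Pdcd1lg2, the gene of PD-L2, and Tnfsf4, Cd70 and Cd200 averaged under 1 FPKM in all 4 groups.

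Among 6 tested checkpoint and costimulatory receptors, 1 rose in knockdown, Tnfrsf9, and 1 fell, Cd200r1, the inhibitory receptor gene for CD200. Of all genes tested, 17.4% rose and 8.86% fell. Cd200r1 averaged 11.7 ± 0.758 FPKM in knockdown and 24.4 ± 2.35 FPKM in scrambled controls (SD, n = 3 each), with a fitted log2 change of -0.998 (limma, BH adjusted p = 0.00148). The receptors Ctla4, Icos, Btla, Lag3, Tigit, Cd160, Tnfrsf18 and Cd27 averaged under 1 FPKM in all 4 groups. Of 10 tested genes below CD40 and PD-1, 1 fell, against the same 8.86% of all genes. It was the adaptor gene Traf1, at -0.43 (limma, BH adjusted p = 0.0473), a call lost in 5 of the 6 fits that left out 1 library, at adjusted p between 0.0560 and 0.126. In overexpression the largest log2 fold changes in these lists were -0.23 for Cd276 and -0.20 for Tnfrsf14, -0.30 for Tnfrsf9 and 0.18 for Cd200r1, and -0.16 for Nfkb2 and -0.12 for Map3k14, and none passed. The difference between the effects was called for Cd200r1, at 1.18 (limma, BH adjusted p = 0.00367), and for Cd276, at -0.70 (adjusted p = 0.00392). Both were lost without both libraries numbered 1 (0.119 for Cd200r1 and 0.0981 for Cd276) or 3 (0.0970 and 0.165).

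The genes whose log2(FPKM + 1) ran most nearly parallel to each member over the 12 libraries were found by Pearson's r among 10098 named genes, as a description of libraries that share number and experiment. For Cd40 the nearest was Cd200r1, at r = 0.98, followed by Rab10os and Tmem171 at 0.96. For Cd86 they were Itpripl2 at 0.97, Cttnbp2nl at 0.96 and Rap1b at 0.95, and for Cd80 Slc9a4, Nbeal2 and Wipf1, all at 0.97. The pattern of Cd274 was nearest to Bhlhe41 at 0.97 and to Aph1c and Ttc32 at 0.96, and that of Pdcd1 was near to Prkar1a and Atp5j, both at 0.97. Cd74 had the loosest matches, Ccdc63 at 0.93 and Ap1b1 and Necap2 at 0.92, and H2-DMa matched Txnl4a, Tpm3 and Morf4l2 at 0.97. No class II member was among the 3 nearest genes of another member.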

How the data were processed

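The authors deposited 1 table of values per experiment, with 6 libraries each. The libraries, per the labels' protocols, came from polyA RNA with TruSeq v2, a kit that does not mark strand, and gave single-end reads of 100 bases on an Illumina HiSeq instrument. Tools listed without order in the submitters' processing notes are STAR 2.5.2a, featureCounts, DESeq2 1.14, CASAVA 1.8.2 and bcl2fastq, with the build mm10, while the annotation used for counting is not given in the sources used here. As to their unit, the deposited values were taken to be FPKM, from the values themselves: each is a whole number of reads divided by 1 length per gene and 1 total per library, within 0.001 reads, for all 17842 genes above 0. For the 3725 genes above 0 in fewer than 10 libraries that read scale is uncertain. The design allowed for counts or FPKM, and the FPKM test was used.

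Where the libraries compared averaged 1 FPKM or more, a gene entered a two-sided limma test (version 3.58.1, R 4.3.3) on log2(FPKM + 1), with Benjamini-Hochberg adjustment over all genes tested and a threshold of 0.05. This scale understates changes of low genes. The difference between the effects was an interaction contrast over 12 libraries. The unpaired knockdown and overexpression fits were tested on simulated data with independent libraries. Those data held no pairs and no libraries that stood apart, and the other fits were not tested this way. Counting intervals and floors cover counting error only. Library totals of 22.3 to 33.1 megareads gave 113 reads or more per library for Cd80 but as few as 5 for Pdcd1. Entries with a symbol used more than once, 4 in all, were left out.

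Numbers shared between groups were checked as pairs: deviations from group means of same-numbered libraries correlated at 0.397, 0.540 and 0.345 in the knockdown experiment and at 0.791, 0.845 and 0.513 in the overexpression experiment, so the numbers were taken to pair the libraries. The pairing comes from this check, since the labels do not say what a number stands for. The main fits did not use the pairing, which entered a fit only as the replicate block, an alternative. Alternatives were the pseudocount, the filter, median-of-ratios scaling, limma options, all libraries in 1 fit, the replicate block, limma-voom on recovered reads, and leaving out libraries singly or, chosen after seeing the data, both of a number.

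Named genes were Spi1, all members, up to 4 called genes of each pathway sublist with the largest change (or 2 that did not pass, where none was called), genes near 0 and the 3 genes most like each member, of which 1 is not reported here. Members and lists were chosen with earlier results of these data known. Marker lists of B cells, dendritic cells and astrocytes had 0 markers averaging 1 FPKM, as had those of oligodendrocytes, endothelial cells and fibroblasts, neuron markers were at 0, and 1 neutrophil marker reached it. Gene positions are from GENCODE M21 on mm10.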

Additional observations from a re-analysis of the deposited data

Results flagged for a closer look

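The effects of raising and of lowering Spi1 differed for Cd86 by 1.24 on the log2 scale, overexpression effect minus knockdown effect (limma interaction contrast over 12 libraries, BH adjusted p = 0.00930). The same difference for Cd40 was 0.74 (limma, BH adjusted p = 0.0197). In both genes the treated library was lower than its same-numbered control in 3 of 3 knockdown pairs, as in 24.6% of all genes tested. It was higher in 3 of 3 overexpression pairs, as in 14% of genes, though the Cd40 pair numbered 2 had a ratio of 1.01. The overexpression effects alone, 0.29 for Cd86 and 0.15 for Cd40, did not pass the test, and the knockdown effects were -0.95 and -0.59. Both differences lost their call without both libraries numbered 1 or both numbered 3.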

How the results depend on the processing

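In the knockdown 11214 genes were tested in the main fit, among them 7 members and 49 of the pathway list. The fit of all 12 libraries called 1624 genes, 3 members and 5 of the pathway list, against 2945, 5 and 9 in the main fit. With the replicate block, which uses the pairing, these were 5081 genes (45.3%), 6 members and 26 of the list. In overexpression the block called 13 genes (0.116%), against 0, and for the difference 4658 genes (41.5%) and 5 members, against 543 and 2. Leaving out both libraries of a number was chosen after seeing the data. Without numbers 2 the knockdown gave 449 genes (4%), 3 members and 2 of the list. Without numbers 1 it gave 1123 genes, and without numbers 3 it gave 678 genes (6.05%), 3 members and 2 of the list. The difference gave 80 genes and 1 member without numbers 2, 8 genes and 0 members without numbers 1, and 0 genes and 0 members without numbers 3. These fits have fewer samples. Leaving out 1 library gave 1458 to 2206 genes, 4 to 5 members and 6 to 11 of the list in the knockdown, 0 genes in overexpression, and 109 to 575 genes and 1 to 3 members for the difference. The sign of H2-DMa in the knockdown turned to -0.023 with median-of-ratios scaling and to -0.049 without numbers 1, and ranged from -0.15 to 0.17 without 1 library. In overexpression, leaving out 1 library gave 0.12 to 0.43 for Cd86, 0.081 to 0.23 for Cd40, -0.49 to 0.24 for Cd80, -0.076 to 0.47 for H2-DMa, -0.53 to 0.047 for Cd74 and -0.14 to 0.40 for Cd274; for the difference it gave -0.049 to 0.53 for Cd74 and -0.10 to 0.44 for H2-DMa. The cause was not tested. Reads limit Pdcd1 in overexpression and all statements on Ciita, H2-Aa and H2-Ab1.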
